A study of Oryza sativa Japonica Group with 16 samples.

Results

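The windows described here are stretches of the rice genome whose CHH methylation was listed as higher in both the *ta2* mutant and the *OxDRM2* plants than in the wild type in crown root (CR) initials, and which were listed in neither comparison of lateral root (LR) initials. They were chosen by the deposited values themselves, namely a positive difference in both CR tables and absence from both LR tables. The rule found 91609 windows of 1000 bp, out of 1024562 windows listed in any of the 4 tables. Because the rule used these differences, the CR values below are a description of the selected windows and carry no test.

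Bisulfite sequencing was done on stage 1 root initials cut out by laser microdissection from rice of the Zhonghua 11 (ZH11) background, with 2 biological replicates in each mutant group and root type. The groups are *ta2* CR, *OxDRM2* CR, *ta2* LR and *OxDRM2* LR, each set against wild type initials of the same root type and stage. By the study's methods, CR initials were taken from younger seedlings than LR initials, and from a different organ. Root type thus cannot be told apart from seedling age or source organ. No wild type library is among the samples of this series. A difference between the wild type and mutant sets of libraries thus cannot be told apart from a difference in genotype. *ta2* is a point mutation of the DNA demethylase gene DNG702 that alters its splicing and is used because loss of the gene is lethal. *OxDRM2* stands for lines in which the DNA methylase gene DRM2 is overexpressed from a transgene with a ubiquitin promoter. Both mutants were compared with the same wild type libraries within a root type, so the difference in *ta2* and the difference in *OxDRM2* share their wild type value and are not independent of each other. The tables hold no value per replicate and no gene expression, so neither the spread between replicates nor the identity of the dissected tissue could be checked.

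In plants, cytosines are methylated in CG, CHG and CHH contexts, where H stands for A, C or T. CHH methylation is not copied from strand to strand after replication and has to be set again, in part by the methylase DRM2, which is guided to its targets by small RNAs in the pathway called RNA-directed DNA methylation. DNA glycosylases such as DNG702 cut methylated cytosines out of DNA, so the loss of such an enzyme and the gain of DRM2 activity both can raise methylation. Crown roots arise from the stem and lateral roots arise inside existing roots, and the study asked how methylation takes part in the start of both.

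The comparison between root types asked which CR gains of the mutants were not listed in LR. Of 3454187 window positions in the compared sequence, 10.4% were listed as a gain in *ta2* CR and 23.6% in *OxDRM2* CR, and 300528 (8.70%) were gains in both. Of these shared CR gains, the CR-only windows made up 30.5%. A further 152585 windows (50.8%) were gains in both LR tables as well, 38924 (13.0%) were also gained in *OxDRM2* LR only and 16446 (5.47%) in *ta2* LR only. Only 964 windows (0.321%) were listed as a loss in an LR table. By comparison, 84.6% of all window positions were listed in neither LR table. Gains took 9.67% of the positions in *ta2* LR, beside 12.6% in *OxDRM2* LR.

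The converse set was smaller. Gains in both mutants in LR that were in neither CR table numbered 27661 windows, or 11.4% of the 241867 LR gains in both mutants, so the CR-only windows were 3.31 times as many. The *OxDRM2* CR table also listed far more gains than the *OxDRM2* LR table, with 814306 against 433562 windows, whereas *ta2* had 359154 in CR and 334185 in LR. The part of this difference in listing in the counts of CR-only and LR-only windows was not tested. For *OxDRM2*, the study's sequencing summary gives lower coverage in LR than in CR, with uneven read numbers between the LR replicates. The part of sequencing depth in these counts was not tested either.

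Most CR-only gains were modest. In *ta2* CR their difference from wild type had a median of 18.4 percentage points (quartiles 13.3 and 28.6, range 10.0 to 99.1), beside 20.2 points over all gains of that table. In *OxDRM2* CR the median was 21.1 points (quartiles 15.5 and 29.9, range 10.0 to 98.8), beside 17.5 points over all gains of that table. All CR gains in both mutants, of which the CR-only windows are a subset, had higher medians, at 21.2 points for *ta2* and 23.0 for *OxDRM2*. Windows gained in all 4 tables were larger in CR, with medians of 24.8 points in *ta2*, beside 25.3 in *OxDRM2*, and reached medians of 29.3 points in *ta2* LR, beside 29.0 in *OxDRM2* LR. The LR-only windows resembled the CR-only ones in size, with medians of 20.9 points in *ta2* LR, beside 18.2 in *OxDRM2* LR.

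**Figure D1:**
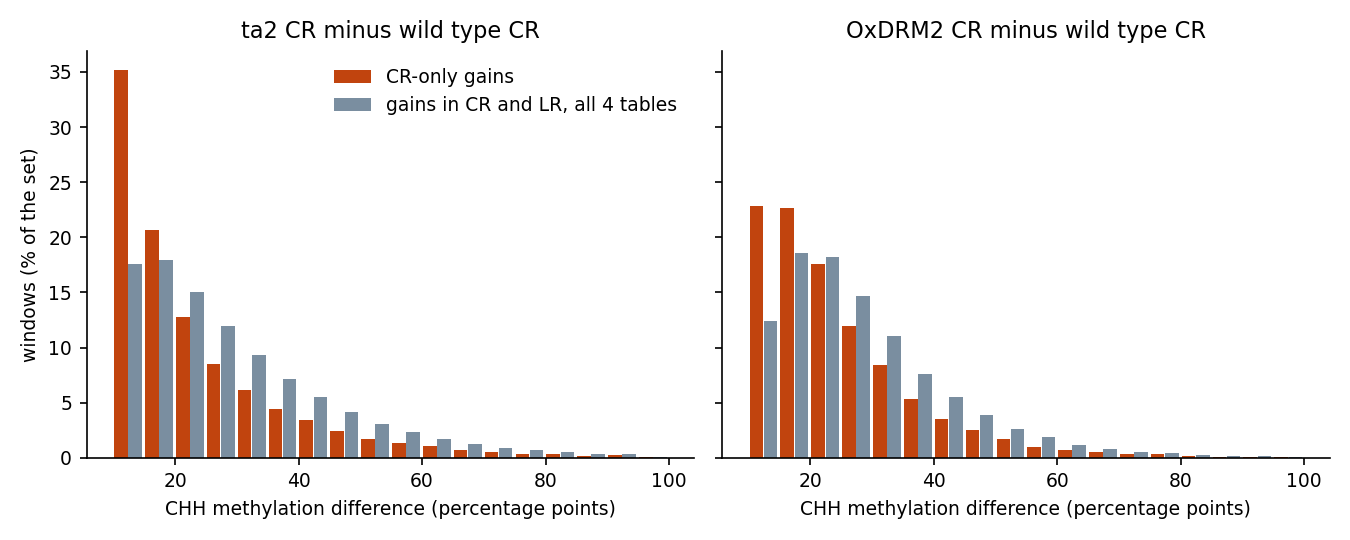
Share of windows (%) in classes of 5 percentage points of the CHH difference, mutant minus wild type, for *ta2* CR (left) and *OxDRM2* CR (right), with CR-only gains in orange and gains of all 4 tables in grey. The CR-only windows pile up in the lowest classes, with medians of 18.4 and 21.1 points against 24.8 and 25.3 points.

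The 2 mutants gave similar differences in many of the CR-only windows. In 40624 of them (44.3%) the *ta2* and *OxDRM2* values lay within 5 points of each other, and the *OxDRM2* difference was the larger in 59.5%. The median of the *OxDRM2* difference minus the *ta2* difference was 1.74 points (quartiles -3.82 and 7.16). Closeness of the 2 values was not particular to the CR-only windows. Among windows gained in all 4 tables, 42.4% lay within 5 points in CR, the *OxDRM2* difference was the larger in 52.5%, and the median was 0.531 points. Large departures occurred in both directions. Of the 91609 CR-only windows, the *OxDRM2* difference exceeded that of *ta2* by over 20 points in 3107 and the reverse held in 3684. Among the 152585 windows gained in all 4 tables these counts were 2877 and 7970. These comparisons rest on shared wild type libraries and give each mutant's value beside the other, with no test.

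Some windows lay near the limit of the tables. The smaller of the 2 CR differences was under 11 points in 10983 CR-only windows, just inside the 10 point limit with which the tables were made. Just outside the rule, 3586 shared CR gains (1.19% of them) were left out because of an LR gain whose larger listed difference was itself under 11 points. Among the CR-only windows the largest q-value was 0.00687 for *ta2* CR, beside 0.000786 for *OxDRM2* CR.

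The share of shared CR gains that was CR-only varied with the size of the gain. The rule used both the CR differences and the LR listing, so this is a description. A CR gain near the 10 point limit needs only a slightly lower LR difference to go unlisted there, unlike a large gain. Where the smaller CR difference lay between 10 and 12 points, 20163 of 46843 windows (43.0%) were CR-only. The share fell with size to 29.6% between 15 and 20 points and 22.5% between 30 and 50 points. It did not go on falling, with 23.0% between 50 and 80 points and 310 of 1227 windows (25.3%) at 80 points or more. The share gained in all 4 tables went the other way, from 31.3% in the lowest class to 66.9% between 30 and 50 points and 71.3% in the highest class.

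**Figure D2:**
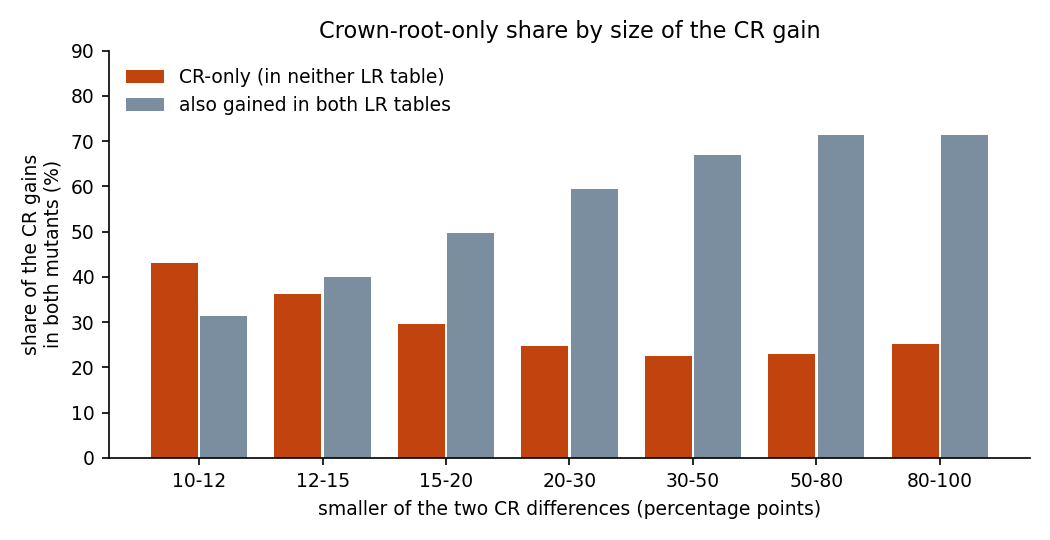
CR-only windows (orange) and windows also gained in both LR tables (grey) as a share (%) of the CR gains in both mutants, by the smaller of the 2 CR differences in percentage points. The CR-only share fell to 22.5% between 30 and 50 points, against 43.0% in the lowest class, and was 25.3% in the highest class.

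Adjacent windows start 100 bp apart and share 900 bp, so the 91609 windows were merged wherever they overlapped or touched. This gave 23511 regions, called CR-only regions here, with a median length of 1200 bp (quartiles 1000 and 1600 bp). Their spans took 32.6 Mb or 9.43% of the compared sequence, whereas the CR-only windows were 2.65% of the window positions. The spans run over all sequence from the first to the last window of a region and are not free of LR-listed windows. Such windows overlapped 72.9% of the CR-only windows. A single window made up 7058 regions (30.0%), and 1845 regions (7.85%) held 10 or more windows. The regions described below were taken by length and by mean difference. No gene is named here, because no annotation of the genome build of the tables was used.

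The longest CR-only regions had moderate differences. The longest lay on chromosome 5 from 22245201 to 22251000 (5800 bp) and held 20 CR-only windows with mean differences of 17.0 points in *ta2* CR, beside 23.8 in *OxDRM2* CR. In *ta2* the values ran between 10.0 and 23.4 points, and in *OxDRM2* between 17.3 and 34.6 points. The span was not free of LR gains, since of its 49 window positions 5 were listed in *ta2* LR and 9 in *OxDRM2* LR, among them windows of 23.0 points in *ta2* LR, beside 30.7 in *OxDRM2* LR that start at 22247801. Just upstream, the window starting at 22244501 was listed as a loss of -16.9 points in *ta2* CR and as a gain of 13.0 points in *OxDRM2* CR. Within the span stood stretches listed in CR only, such as the 8 windows starting from 22245501 to 22246201, with 20.5 to 23.4 points in *ta2* CR, beside 20.5 to 23.6 in *OxDRM2* CR.

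The region with the most CR-only windows, 38, lay on chromosome 3 from 20447301 to 20452600 (5300 bp). Its mean differences were 21.6 points in *ta2* CR (range 10.1 to 36.9) and 26.7 points in *OxDRM2* CR (range 10.7 to 34.1). All 44 window positions of the span were CR gains in both mutants, and a single interior block of 6 windows was listed in LR, at 24.5 to 34.3 points in *ta2* LR, beside 32.3 to 43.7 in *OxDRM2* LR. The gain in CR thus ran on through the LR-listed block with no break in either mutant. Windows listed in both LR tables also stood immediately upstream, where the window starting at 20447201 had 24.9 points in *ta2*, beside 29.5 in *OxDRM2* in CR, against 24.3 and 23.7 points in LR.

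The other long regions were of the same kind. On chromosome 7 a region of 32 windows from 15352401 to 15358000 averaged 16.0 points in *ta2* CR, beside 26.3 in *OxDRM2* CR, and another of 25 windows from 19346801 to 19352000 averaged 17.1 and 26.4 points. On chromosome 5 a region of 16 windows from 14157101 to 14162000 averaged 14.8 points in *ta2* CR, beside 23.4 in *OxDRM2* CR, with 16 window positions of its span listed in *ta2* LR. In all 5 of the longest regions the *OxDRM2* mean was the higher.

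The longest regions of chromosomes 1, 2, 8, 10, 11 and 12 ranged more widely in their means. On chromosome 12 from 3692701 to 3697300, 29 windows averaged 40.6 points in *ta2* CR, beside 28.3 in *OxDRM2* CR, and no window position of the span was listed in LR, although LR-listed windows overlapped its edges. The spans on the other 5 chromosomes did hold LR-listed windows, with 0 to 8 in *ta2* LR and 4 to 12 in *OxDRM2* LR. On chromosome 11 from 27389501 to 27393700, 17 windows averaged 41.3 and 41.0 points and reached 91.3 points in *ta2* CR, beside 94.2 in *OxDRM2* CR. On chromosome 2 from 11604901 to 11609600, 18 windows averaged 25.6 points in *ta2* CR against 17.0 points in *OxDRM2* CR. The regions of chromosomes 1 (7214301 to 7218500) and 10 (13899501 to 13903400) had means above 30 points in both mutants, at 31.2 and 33.8 points and at 32.5 and 35.5 points. On chromosome 8 the longest region, from 6252001 to 6256400, averaged 16.8 points in *ta2* CR, beside 17.4 in *OxDRM2* CR.

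A small number of CR-only windows had very large differences. Both mutants were 50 points or more above wild type in 2988 windows (3.26%), 80 points or more in 310 windows that formed 97 regions, and 90 points or more in 114 windows. A difference of 80 points leaves the wild type at 20% or less and places the mutant at 80% or more. Chromosome 6 held 67 of the 310 windows, chromosome 4 held 53, chromosome 11 held 50 and chromosome 7 held 42. The 1227 shared CR gains of that size were not counted by chromosome, so these numbers have no comparison.

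The highest mean difference was on chromosome 4 from 853401 to 855200, where 9 windows had 97.9 to 99.1 points in *ta2* CR, beside 93.4 to 98.8 in *OxDRM2* CR. The next window along, starting at 854301, had 97.7 points in *ta2* CR, beside 76.1 in *OxDRM2* CR and was listed in *OxDRM2* LR at 77.6 points. From 854401 onwards the *OxDRM2* CR difference was 11.4 points or close to it, and *ta2* CR was no longer listed. All 9 CR-only windows hold the bases from 854201 to 854400, so their values are not separate measurements. The windows starting at 854301 and 854401 share 900 bp, and the number of sites behind each is unknown. Where the gain ends was thus not determined.

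On chromosome 6 from 12006101 to 12008100, 11 windows held 96.5 to 97.2 points in *ta2* CR, beside 95.6 to 97.0 in *OxDRM2* CR. Only 4 distinct values occurred among the 11 windows in each mutant, although they covered 2000 bp. The nearest LR-listed window, starting at 12005201, overlapped the first of them and had 60.2 points in *ta2*, beside 55.9 in *OxDRM2* in CR, against 46.3 and 64.0 points in LR. Successive windows that hold the same measured CHH sites have equal values, and the tables do not give the number of sites.

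In 3 of the 5 regions of highest difference, windows with LR gains of the same size lay 100 bp away. On chromosome 7 from 4788101 to 4789700, 7 windows had 96.7 to 96.8 points in *ta2* CR, beside 94.2 to 95.4 in *OxDRM2* CR. The window starting at 4788801, which shares 900 bp with the last of them, was listed in all 4 tables, at 96.8 points in *ta2* LR, beside 97.2 in *OxDRM2* LR. At the start of chromosome 4, from 1101 to 2400, 4 windows had 95.7 to 97.9 points in *ta2* CR, beside 94.7 to 97.6 in *OxDRM2* CR, and the next window (start 1501) had 96.7 points in *ta2* LR, beside 96.2 in *OxDRM2* LR. On chromosome 4 from 1500001 to 1501200, 3 windows had 96.7 to 96.9 points in *ta2* CR, beside 97.0 to 97.2 in *OxDRM2* CR, after a window (start 1499901) with 92.3 points in *ta2* LR, beside 94.6 in *OxDRM2* LR. In these regions a step of 100 bp separated an LR gain of over 90 points from no listing in LR at all. A window can be absent from a table because its difference was small, because its q-value was too high, or because it was not measured. No listed q-value was above 0.00787, and the tables do not tell these reasons apart.

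**Figure D3:**
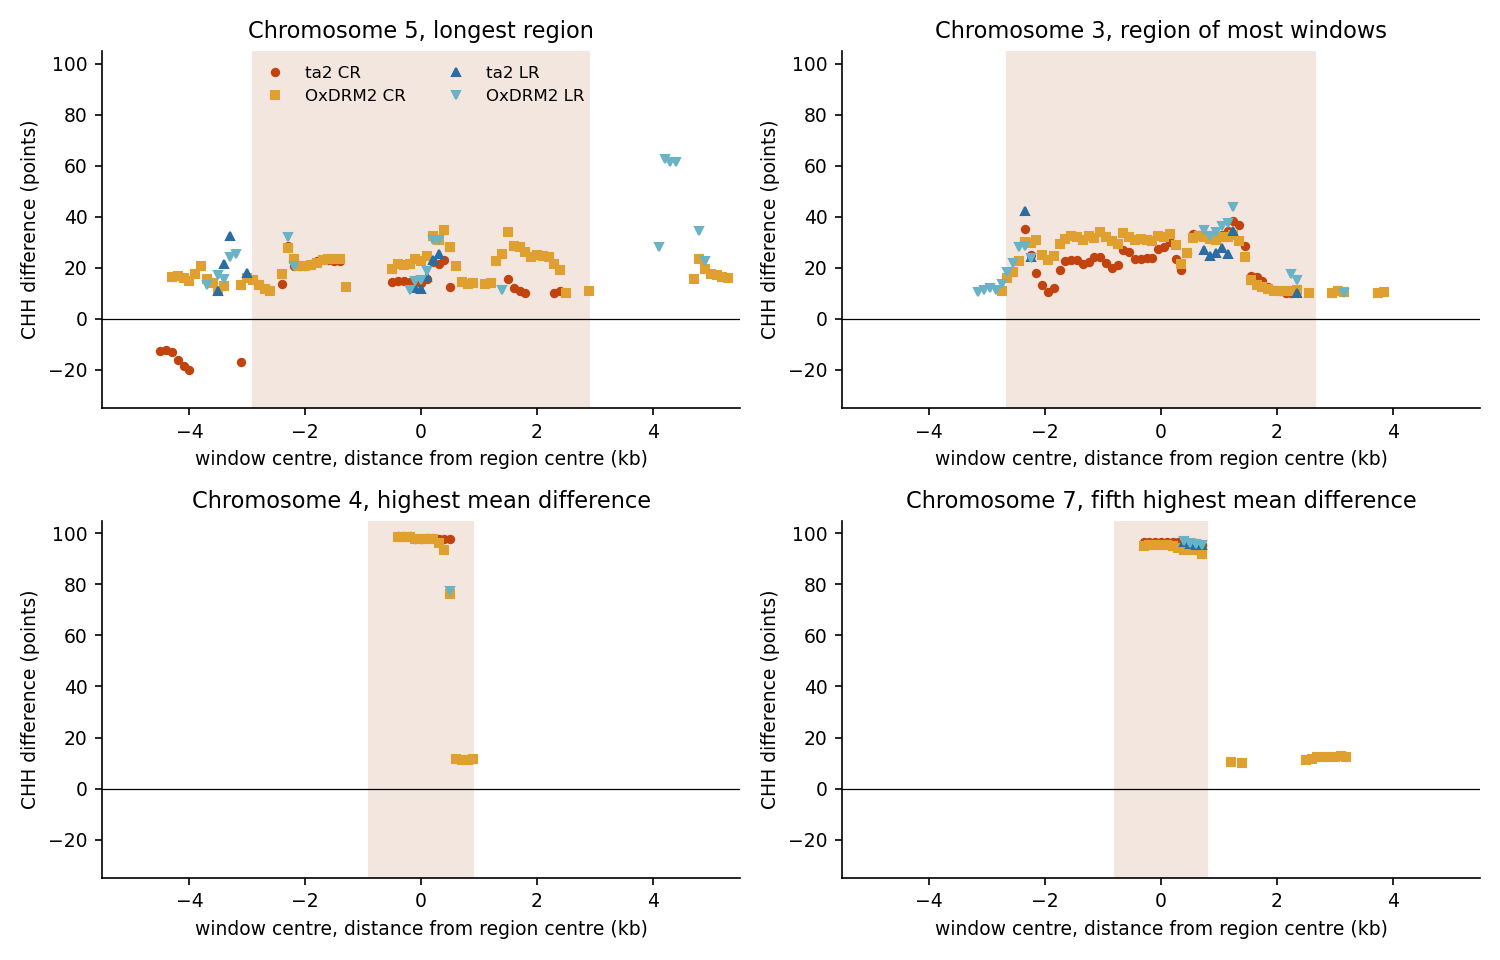
CHH difference (percentage points, mutant minus wild type) of every listed window along 4 CR-only regions, by the distance of the window centre from the region centre in kb, with the region shaded. The CR-only windows of the chromosome 5 and chromosome 3 regions have CR values of 10.0 to 36.9 points and stand among LR-listed windows, and the chromosome 4 and chromosome 7 regions have CR-only windows above 93 points in both mutants beside LR-listed windows of 77.6 and 96.8 points.

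Repeated values were more frequent among the CR-only windows. Of 61134 pairs of CR-only windows 100 bp apart, 3106 (5.08%) had the very same difference in *ta2* CR and 1911 (3.13%) in *OxDRM2* CR, compared with 2.43% and 1.43% of the 123914 pairs gained in all 4 tables. Among CR-only windows of 80 points or more in both mutants, 58 of 210 pairs (27.6%) were equal in *ta2* CR, with 52 (24.8%) equal in *OxDRM2* CR. Pairs of that size gained in all 4 tables were not counted, so these shares have no comparison of like size. The part of the number of measured sites in the absence of these windows from LR was not tested, since the tables give no coverage.

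The surroundings of the CR-only windows in LR were examined next. An LR-listed window overlapped 72.9% of them, that is, its start lay within 900 bp, and 23.7% had one only 100 bp away. Over all 2921065 window positions listed in neither LR table, 37.1% were overlapped by an LR-listed window and 5.93% had one 100 bp away. Among all CR-only windows, 24009 (26.2%) had overlapping LR-listed windows on both sides and 42801 (46.7%) on one side. In 6832 windows (7.46%) the LR window 100 bp away was a gain of over 30 points, and in 2347 (2.56%) of over 50 points. The median distance to the nearest LR-listed window was 400 bp and the largest was 66800 bp.

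**Figure D4:**
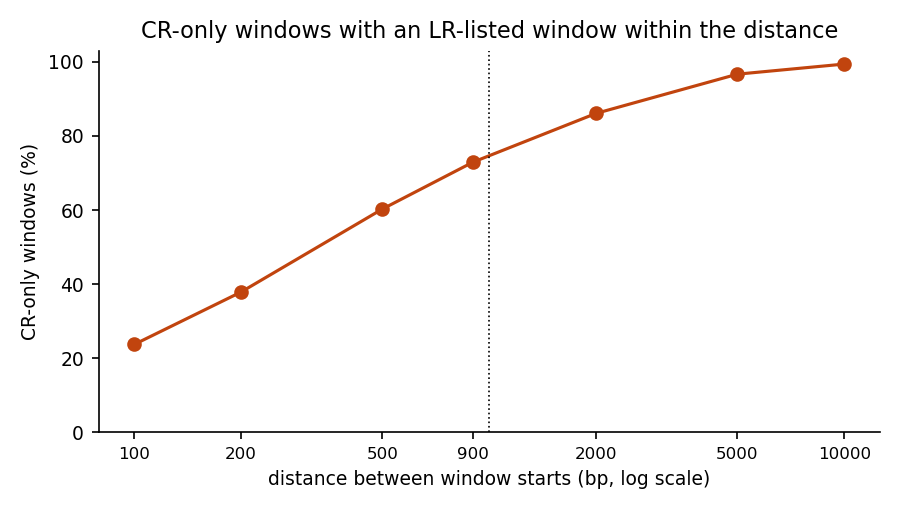
Share of the 91609 CR-only windows (%) with a window listed in either LR table within a given distance between starts in bp, on a log scale, with a dotted line at 1000 bp, from which windows no longer overlap. The share is 23.7% within 100 bp, 72.9% within 900 bp and 96.7% within 5000 bp.

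Only 24799 CR-only windows (27.1%), in 6194 regions, had no overlapping LR-listed window. Their differences were somewhat lower, with medians of 16.9 points in *ta2* CR, beside 19.5 in *OxDRM2* CR. Windows 100 bp from an LR-listed window had medians of 19.5 points in *ta2* CR, beside 22.2 in *OxDRM2* CR, and those 2000 to 4900 bp away 16.6 and 19.0 points. The 3171 windows at 5000 bp or more went against this order, with 18.5 and 21.4 points.

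Losses made up 2.67% of the nearest LR-listed windows at 100 bp and 3.66% at 5000 bp or more, beside 1.36% of all 533122 LR-listed windows. The nearest window was listed in both LR tables for 46.7% of the CR-only windows at 100 bp, but for 27.6% of those at 1000 to 1900 bp. Its larger LR difference had a median of 20.9 points at 100 bp and 16.4 points at 1000 to 1900 bp. For the 310 windows of 80 points or more, 67.4% overlapped an LR-listed window, and the nearest LR difference had a median of 85.7 points.

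The shared CR gains were also merged before the LR tables were considered, which gave 36286 CR gain regions. Of these, 8005 (22.1%) consisted of CR-only windows alone and held 31419 of the members (34.3%). These regions were short, with a median of 1200 bp and 3 windows, and their median mean differences were 15.2 points in *ta2* CR, beside 18.0 in *OxDRM2* CR. The other 60190 CR-only windows (65.7%) stood in 14474 regions that also had LR-listed windows, with a median length of 2000 bp and median mean differences of 21.7 and 23.5 points. Regions with no CR-only window numbered 13807 and had medians of 1800 bp, 20.9 points in *ta2* CR, beside 21.6 in *OxDRM2* CR.

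Most of the 14474 mixed regions had a CR-only window at an end. A CR-only window stood at one end of 9827 regions and at both ends of 1658, and in 2989 regions such windows were in the interior alone. The share of the CR-only windows themselves that stood at an end was not counted. For a comparison within mixed regions, each window was given the smaller of its CR differences in the mutants. By this measure the CR-only windows had the lower median in 8106 mixed regions (56.0%). The medians across regions were 16.5 points for the CR-only windows and 18.1 points for the LR-listed windows of the same region. These values are not on the same footing as the separate values per mutant given above. Whether the differences in LR were just below the limit of the tables cannot be read from the files.

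All 11 compared chromosomes carried CR-only windows at a similar density. They took 2.42% of window positions on chromosome 4 and 2.86% on chromosome 8, with the other chromosomes between 2.57% and 2.71%. The median CR difference varied little, between 17.8 and 19.1 points in *ta2* and between 20.3 and 22.1 points in *OxDRM2*. As a share of the shared CR gains, however, CR-only windows reached 35.6% on chromosome 11 and 35.4% on chromosome 8, compared with 28.8% on chromosome 10 and at most 31.2% on the remaining chromosomes. On these 2 chromosomes the shared CR gains were sparser, at 7.52% of window positions on chromosome 11 and 8.09% on the part of chromosome 8 that was read, with the other chromosomes between 8.20% and 9.41%.

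Among 340 complete blocks of 1 Mb, the CR-only share of shared CR gains had a median of 30.3% and ran between 18.6% and 55.0%. It was over 40% in 21 blocks, of which chromosome 8 held 8, chromosome 11 held 7 and chromosome 12 held 4. The highest share was 176 of 320 windows on chromosome 12 from 20000001 to 21000000, followed by 154 of 295 (52.2%) on chromosome 11 from 12000001 to 13000000. The lowest was 157 of 842 on chromosome 2 from 14000001 to 15000000. In number, CR-only windows were most frequent on chromosome 8 from 10000001 to 11000000 (466 of 1046, 44.6%) and least frequent on chromosome 4 from 15000001 to 16000000 (46 of 177).

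The number of CR-only windows in the 21 blocks had a median of 272 per block, against 266 in the other 319 blocks, while the medians of shared CR gains were 661 and 892. All 4 tables listed fewer gains in them, with medians of 792 against 1068 in *ta2* CR, 1742 against 2433 in *OxDRM2* CR, 648 against 998 in *ta2* LR and 806 against 1306 in *OxDRM2* LR. A high CR-only share thus went with a low number of LR gains, which the share itself is built from.

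**Figure D5:**
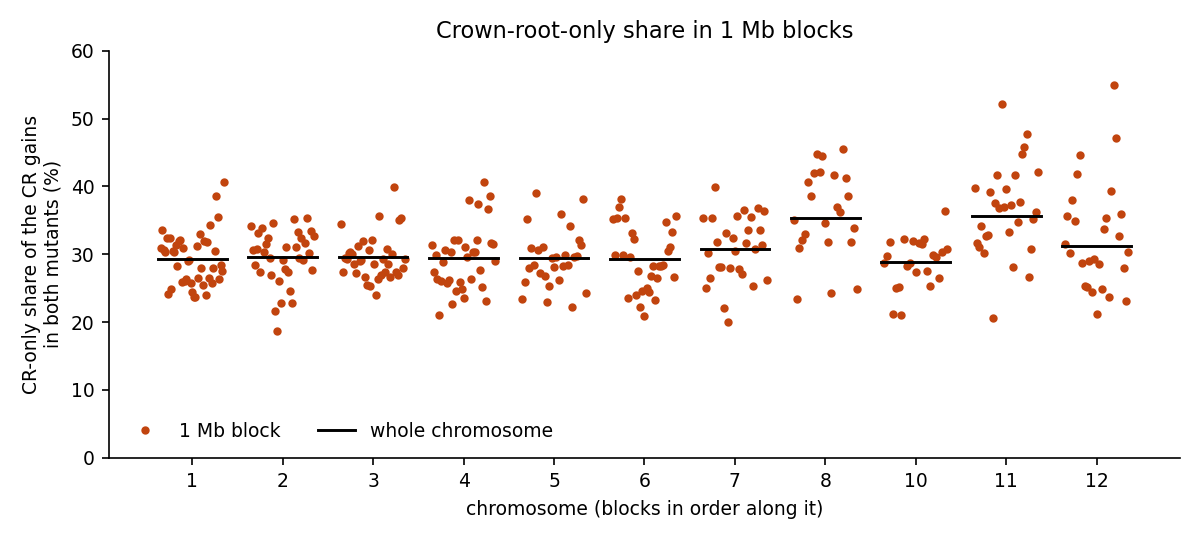
CR-only windows as a share (%) of the CR gains in both mutants in 340 blocks of 1 Mb, in order along each chromosome, with the share of the whole chromosome as a black line. Blocks above 40% are mostly on chromosomes 8, 11 and 12, and the highest reaches 55.0%.

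Toward the chromosome ends the CR-only share varied. In the first 1000000 bp of the chromosomes CR-only windows were 3044 of 9275 shared CR gains (32.8%), and in the last 1000000 bp, leaving out chromosome 8, they were 2135 of 6388 (33.4%). In the first 100000 bp they were 247 of 938 (26.3%) and in the last 100000 bp 242 of 801 (30.2%). The outermost 3000 bp had few shared CR gains, of which 14 of 51 (27.5%) at the start and 27 of 72 (37.5%) at the end were CR-only. Of the 14 CR-only windows in the first 3000 bp, 11 had differences above 70 points in both mutants. They lay on chromosomes 3 (92.7 points in *ta2* CR, beside 87.6 in *OxDRM2* CR at start 901), 4, 7 (81.8 and 80.5 points at start 301) and 8 (91.8 and 91.5 points at start 501). The remaining 3 windows, on chromosome 10, had 15.0 to 29.0 points in *ta2* CR, beside 16.7 to 30.4 in *OxDRM2* CR. Within each of these chromosomes the windows overlap one another. The sizes of the other shared CR gains in the first 3000 bp were not summarised. On chromosome 4 the window starting at 1501, gained in all 4 tables, was as high, with 95.5 points in *ta2* CR, beside 94.3 in *OxDRM2* CR. On chromosome 4, 37 of the 53 CR-only windows of 80 points or more lay in the first 2 Mb, where 399 of its 8580 CR-only windows were found. The place of all shared CR gains of that size along chromosome 4 was not counted.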

How the data were processed

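The authors aligned bisulfite reads with BS-Seeker2 (2.1.8) to the RGAP version 7.0 rice sequence, and the submitters' processing notes name methylKit. Each of the 4 deposited tables lists windows with a p-value, a q-value and a score, read here as the CHH difference in percentage points. The files do not state its direction, and it was read as mutant minus wild type. On inspection the windows were 1000 bp long with starts on a 100 bp grid, whereas the published methods describe shorter bins, and all listed differences were of at least 10 points. The largest listed q-value of any table was 0.00787. The deposited q-values were smaller than the p-values for 11.8% to 79.6% of windows of a table and were not recomputed. Replicates were not given separately, and the depth behind each window is unknown, so no interval was computed.

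Windows were joined by chromosome and start. Chromosome 9 and windows ending past 23670800 on chromosome 8 were left out, since the *ta2* CR table ends there. CR-only windows and the criteria for regions were chosen with earlier results of these data known. The number of window positions of a chromosome is its number of 100 bp steps as far as its last listed window. The regions named were the 5 longest, the 5 of at least 3 windows with the highest smaller mean difference, and the longest of each chromosome not among these. The scripts (Python 3.11.15, pandas 2.3.3, numpy 2.4.6) were tested on simulated windows, where they recovered 200 of 200 planted regions. The 8 RNA-seq samples were not analysed here.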

Additional observations from a re-analysis of the deposited data

How the results depend on the processing

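The number of CR-only windows stayed within 1.5 times of 91609 with a q-value under 0.0001 in both CR tables and when LR losses were let in, but was 30603 above 20 points in both CR tables, 13122 above 30 points, 24799 with no overlapping LR-listed window and 9160 among windows that do not overlap. Of the regions, 12534 held at least 3 windows, while merging windows within 1000 bp left 21195. With no overlapping LR-listed window the median CR difference was 16.9 points in *ta2* and 19.5 points in *OxDRM2*, and it moved by less than 1 point among windows that do not overlap.

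As alternatives added after seeing the data, a limit of 20 points gave CR-only shares of the shared CR gains of 23.8%, with 29.5% on chromosome 11 and 29.1% on chromosome 8, and 78.0% of the windows then overlapped an LR-listed window. Windows that do not overlap moved none of these 4 shares by 5 points.

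No paired analysis was possible because the tables hold no values per replicate, and leaving out a replicate was not run for the same reason. Promoter length, gene overlap and sequence composition were not run, since no genome or annotation of the build of the tables was used. The study's sequencing summary gives higher coverage in CR than in LR for *OxDRM2*, nearly equal coverage for *ta2* and lower coverage in CR than in LR for the wild type, and the part of coverage in the absence of windows from LR was not tested.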
